A study of Mus musculus with 18 samples.

Results

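Puncture of ovarian follicles releases granulosa cells, which surround the oocyte and line the follicle wall, together with small numbers of neighbouring cells. The 44 genes described here are markers of such neighbours, listed by cell type and chosen with earlier results of these data known. They cover blood endothelium (10 genes), lymphatic endothelium (3), macrophages and other leukocytes (13), theca and stroma (5), smooth muscle and pericytes (7) and the keratin-rich surface epithelium (6). All 44 were found among the 24959 genes of the deposited tables.

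The study asked how loss of progesterone receptor (PGR), which exists as a short form (PGR-A) and a long form (PGR-B), alters granulosa RNA before ovulation. Mice of 3 strains were used. PRKO mice (Pgr tm1Bwo) are null for both isoforms, PRAKO mice (Pgr tm1Omc) for PGR-A alone and PRBKO mice (Pgr tm2Omc) for PGR-B alone, and wildtype (WT) mice of the same strain were the controls of each knockout (KO). Mice of all 6 groups were 21 to 27 days old, received 5 IU eCG to grow follicles and, 46 h later, 5 IU hCG in place of the ovulatory hormone surge, and were sampled 8 h after hCG. Each group had 3 libraries, 18 in all, and each library held the RNA of granulosa cells from 3 mice. The alleles are germline nulls, so every cell type of a KO mouse carried them, and no sort or gate was applied beyond puncture.

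A healthy mouse follicle has no vessels inside its basal lamina. Capillaries, lymphatics, androgen-producing theca cells, contractile cells and macrophages lie in the theca and stroma outside it, and the ovary is covered by a keratin-positive epithelium. After the ovulatory signal the follicle wall thins, theca vessels dilate and leak, and leukocytes gather around the follicle. A granulosa preparation can hold a trace of RNA from these cells, and in bulk RNA fewer cells of a type and less RNA per cell cannot be told apart.

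Values are TPM, a transcript abundance per length that is scaled to a fixed sum in every library, so levels of different genes can be set side by side. TPM does not keep read depth, and no count interval could be given. Per gene, log2 fold changes are KO minus WT on log2(TPM + 0.5), which understates changes of low genes, given as estimate ± SE and tested in limma within each strain with Benjamini-Hochberg adjustment over all genes tested. Called genes had an adjusted p no higher than 0.01 together with a log2 fold change of 1 or more in size. A weaker threshold, an adjusted p of at most 0.05 with any fold, was also used, and rose and fell are written only of genes that passed it.

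Listed granulosa markers summed to more than the members did. The summed level of 12 granulosa markers was 2482 to 4237 TPM in a library, against 189.9 to 308.7 TPM for all 44 members together. Inha alone held 1437 to 2527 TPM, and the 12 genes made up 0.605% to 0.899% of protein-coding TPM. Outside the members, 12 further theca and stroma genes summed to 237 to 382 TPM and 10 oocyte genes to 185 to 415 TPM. These sums are therefore no measure of purity. Pgr transcript did not fall under any KO label. It held 1.73 to 2.09 TPM in PRKO WT and 1.49 to 2.67 TPM in PRKO KO, 0.829 to 1.10 and 8.36 to 12.4 TPM in PRAKO, and 1.41 to 6.24 and 2.62 to 4.88 TPM in PRBKO, so KO and WT stand for the labels of the libraries. The PRBKO KO libraries stood apart, with 50.9% to 61.2% of TPM in protein-coding genes against 37.3% to 47.8% in the other 15 libraries. Genotypes did not overlap in this share in the other strains either. It was 37.7% to 40.7% in PRAKO WT and 44.7% to 47.8% in PRAKO KO. In PRKO it was 39.3% to 44.5% in WT and 37.3% to 39.1% in KO. Over all genes tested the median log2 fold change came to −0.10 for PRKO, 0.22 for PRAKO and 0.22 for PRBKO, and a fold change relative to it is added where it bears on a direction.

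**Figure D1:**
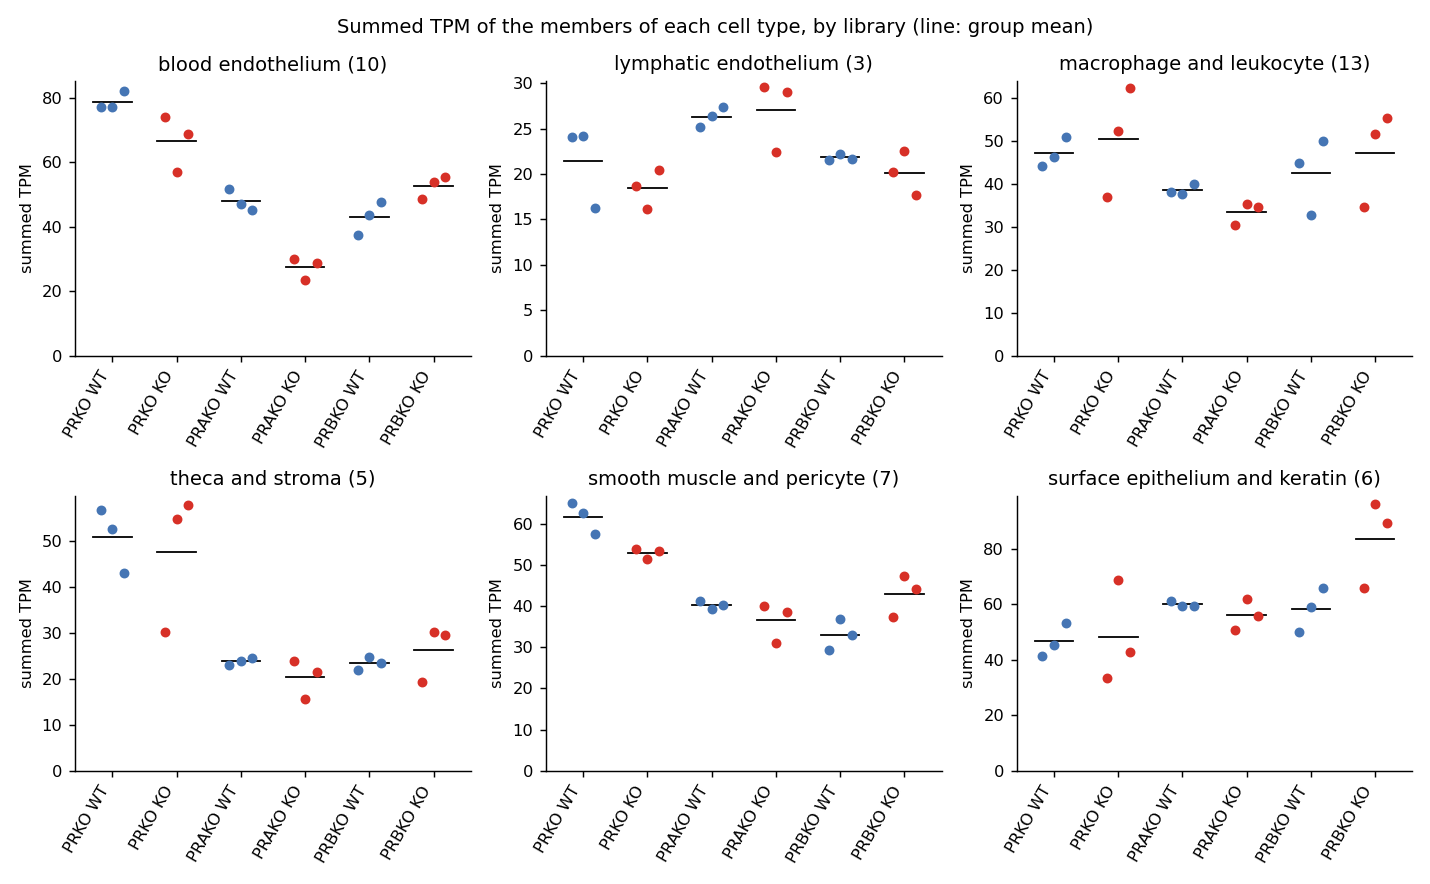
Summed TPM of the members of each of the 6 cell types (number of genes in brackets), 1 point per library, 3 libraries per group, with a line at the group mean. In blood endothelium the 3 PRAKO KO libraries (23.5 to 30.0 TPM) sat below the 3 PRAKO WT libraries (45.1 to 51.8 TPM). Of these sums Cdh5 alone held 8.31 to 10.4 TPM in KO and 25.5 to 29.9 TPM in WT. Among the other blood endothelial members only Tek, under 1 TPM there, had PRAKO groups that did not overlap. The macrophage sums of PRKO KO ran from 36.9 to 62.3 TPM.

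None of the 44 members was listed at 0 in any library. Mean levels over the 18 libraries ran from 0.133 TPM for Vwf, the clotting factor carrier of endothelium, to 22.9 TPM for Cdh5, the adhesion molecule of endothelial junctions. The members that reached 1 TPM in at least 3 libraries of a strain, and so were tested, numbered 40 in PRKO, 39 in PRAKO and 38 in PRBKO. Vwf, Ptprc and Adgre1 were below this in all 3 strains, so the general leukocyte marker and the classic macrophage marker of the mouse have levels here and no test.

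Few members moved with genotype. In PRKO 0 of 40 members were called by limma, against 2.14% of all genes tested (1.82% fell and 0.316% rose), and 7 had an unadjusted p under 0.05. At the weaker threshold 2 passed, Cdh5 which fell and Kdr which rose, against a background of 9.96% (7.85% fell and 2.11% rose). In PRAKO 1 of 39 was called, Cdh5, which fell, against 2.05% of all genes (1.21% fell and 0.841% rose). There 9 members had an unadjusted p under 0.05. At the weaker threshold 4 passed, against 34.5% (4.51% fell and 30% rose), of which Cdh5, Insl3 and Tcf21 fell and Prox1 rose. After scaling by size factors, to protein-coding genes or by quantiles 9, 10 and 9 members fell in PRAKO and 0 rose, against falls of 9.46%, 7.54% and 8.61% and rises of 6.94%, 6.64% and 9.55% of all genes under the same scalings. Acta2, C1qb, Cdh5, Emcn, Insl3, Lyz2, Tagln, Tcf21 and Upk3b fell under all 3, and Krt7 under protein-coding scaling. In PRBKO 0 of 38 were called, against 0.133% (0.0419% fell and 0.0907% rose), and 0 passed the weaker threshold, against 3.4% (0.209% fell and 3.19% rose), with 8 at an unadjusted p under 0.05. Leaving out PRBKO KO replicate 1 took that 0 to 13, and the 0.05 counts of PRKO and PRAKO ranged from 1 to 3 and from 1 to 4 when single libraries were left out. The share of all genes passing was not worked out for these runs, so their counts have no background. Nor was the share of all genes at an unadjusted p under 0.05 worked out for any comparison, so those counts have none either. PRBKO KO replicates 2 and 3, which stayed in, held 61.2% and 58.8% of TPM in protein-coding genes, against 42.7% to 47.4% in PRBKO WT.

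The direction of the members as a whole was read against the median of all genes. In PRKO the median log2 fold change of the tested members was −0.13 beside −0.10 for all genes, with 23 members below the all-gene median and 17 above it. In PRAKO it was −0.12 beside 0.22, with 36 below and 3 above. In PRBKO it was 0.20 beside 0.22, with 21 below and 17 above. The PRAKO members thus stood lower than the bulk of genes, while on TPM as deposited all 3 PRAKO KO libraries were below all 3 WT libraries for 7 tested members and above them for 3, against 6.31% and 45% of all genes. After rescaling to protein-coding genes, an alternative chosen after seeing the data, these became 17 and 1, against 15.3% and 18.6% of all genes on that scale. The sum of 12 granulosa markers in PRAKO was 2525 to 2695 TPM in WT and 3325 to 3703 TPM in KO. As a share of protein-coding TPM it was 0.630% to 0.669% in WT and 0.733% to 0.779% in KO, a smaller rise. The part of this in the members' position was not tested.

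**Figure D2:**
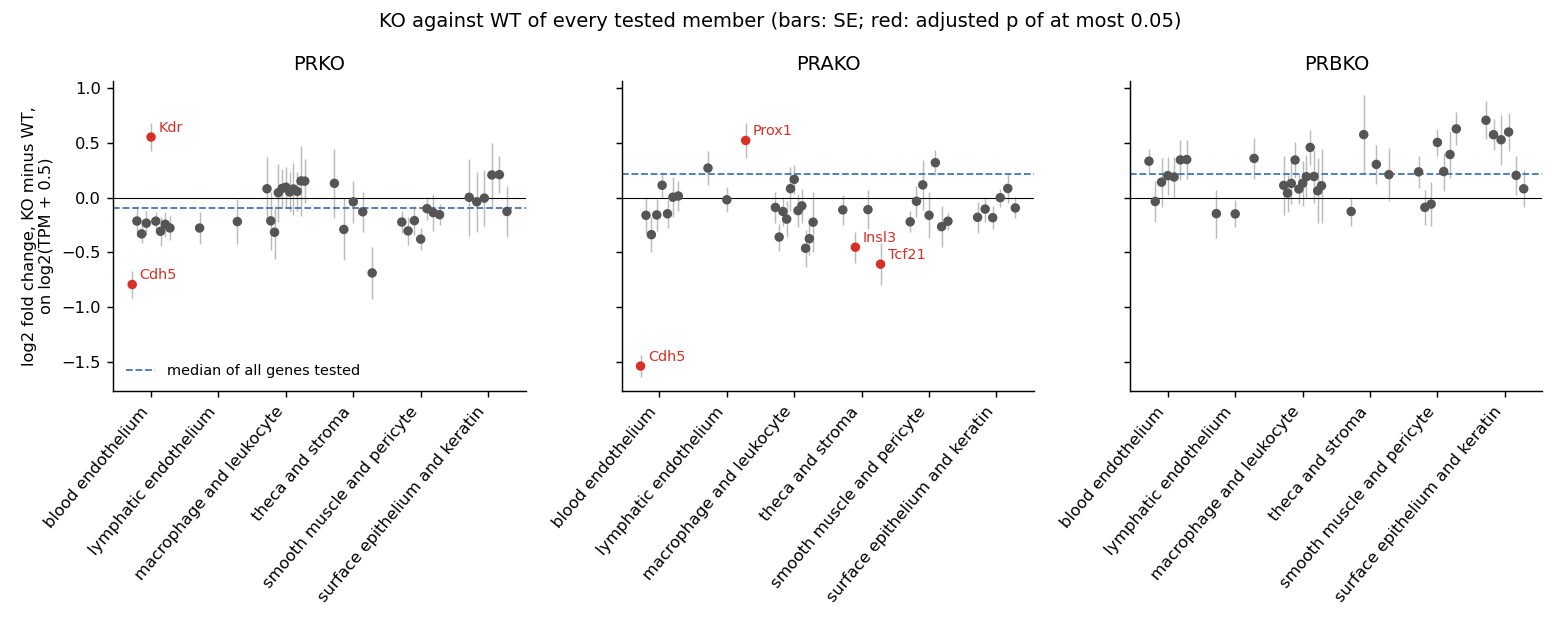
Log2 fold change, KO minus WT on log2(TPM + 0.5), of every tested member by cell type in each strain, with bars of 1 SE, a dashed line at the median of all genes tested and red for an adjusted p of at most 0.05. Cdh5 was the lowest point in PRKO (−0.79) and PRAKO (−1.54), and no point is red in PRBKO.

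The clearest change among the members was that of Cdh5, a blood endothelial gene. Cdh5 (gene 12562, chromosome 8, 104101613 to 104144504 in GRCm38.p6) encodes VE-cadherin, which holds endothelial cells together. Its PRKO libraries held 26.3, 26.0 and 30.2 TPM in WT and 17.8, 13.3 and 16.1 TPM in KO. Every KO library was below every WT library, and the change was −0.79 ± 0.12 (−0.70 after subtracting the all-gene median, written as relative from here on, limma adjusted p = 0.00766). It passed the weaker threshold and missed the fold limit of a call.

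In PRAKO Cdh5 fell past the fold limit. WT libraries held 29.9, 28.5 and 25.5 TPM and KO libraries 10.4, 8.31 and 9.27 TPM. The groups were far apart, with a change of −1.54 ± 0.10 (−1.76 relative, limma adjusted p = 6.68e-05). Cdh5 was called in PRAKO under every alternative run, with changes between −1.76 and −1.46.

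In PRBKO Cdh5 held 23.2, 24.4 and 27.7 TPM in WT and 31.8, 30.6 and 32.6 TPM in KO. The groups did not overlap and KO was the higher one, but the change of 0.33 ± 0.11 was near the 0.22 shift of all genes and did not pass (limma adjusted p = 0.0901). With all 18 libraries in the fit the adjusted p was 0.0336, and without PRBKO KO replicate 1 it was 0.0307. Wildtype levels of Cdh5 were alike in the 3 strains, at 27.5 ± 2.33, 27.97 ± 2.22 and 25.1 ± 2.31 TPM (mean ± SD, n = 3).

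The effect of genotype on Cdh5 was compared between strains in a fit of all 18 libraries. The fall in PRAKO was larger than the change in PRBKO by −1.87 ± 0.15 (limma adjusted p = 1.65e-06), and the fall in PRKO differed from PRBKO by −1.12 ± 0.15 (limma adjusted p = 9.35e-05). Both differences were called, against 2.01% of all genes (1.73% negative and 0.275% positive) and 3.75% (3.62% and 0.134%). The latter was −0.82 relative to the median of all genes and was not called after scaling by size factors, to protein-coding genes or by quantiles. PRAKO and PRKO differed by −0.74 ± 0.15 (limma adjusted p = 0.0114), short of a call, as for all 41 members compared (0 called against 0.51% of all genes, 0.0403% negative and 0.47% positive, with 3 at an unadjusted p under 0.05). Relative to the median this was −1.05, and it was called under each of the same 3 scalings.

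**Figure D3:**
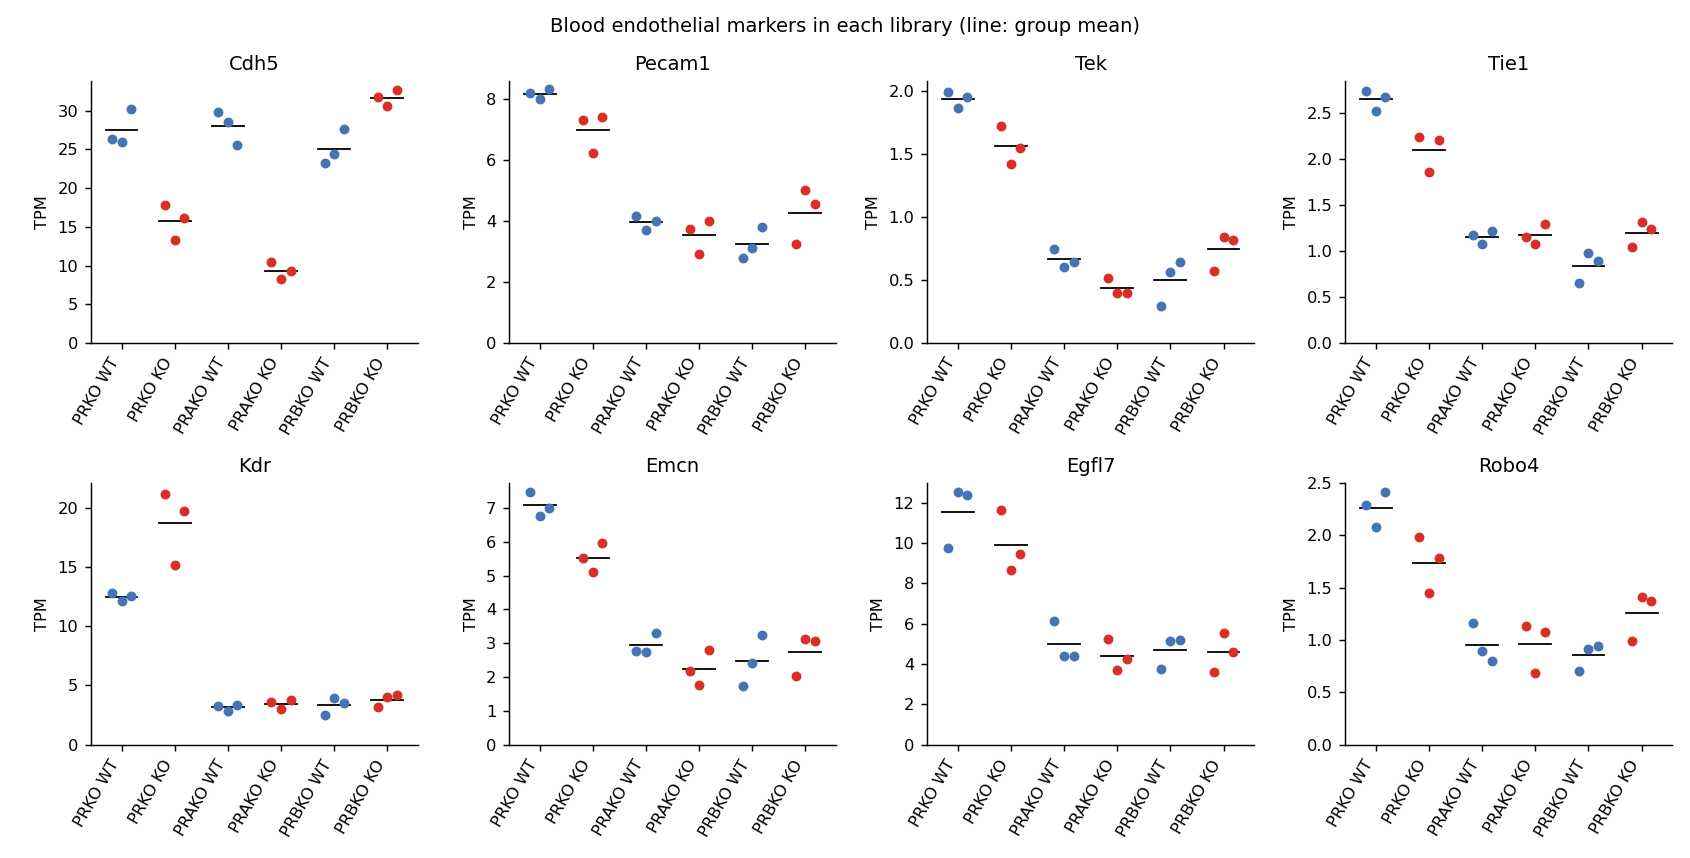
TPM of 8 blood endothelial markers in each of the 18 libraries, with a line at the group mean of 3 libraries, blue for WT and red for KO. Cdh5 was low in PRKO KO and PRAKO KO, Kdr was high in PRKO KO, and the other 6 genes were higher in all 6 PRKO libraries than in the other 12.

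Kdr (gene 16542, chromosome 5, 75932827 to 75979072), the main VEGF receptor of endothelium, went the other way in PRKO. WT libraries held 12.8, 12.1 and 12.5 TPM and KO libraries 21.2, 15.1 and 19.7 TPM. KO was above WT in every library, a rise of 0.55 ± 0.13 (0.65 relative, limma adjusted p = 0.0370). The pass was lost without filtering (limma adjusted p = 0.0672) and without any 1 of the 3 WT libraries, KO replicate 1 or KO replicate 3 (0.0656 to 0.125).

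Kdr in the other strains showed no such separation. PRAKO libraries held 3.26, 2.87 and 3.33 TPM in WT and 3.56, 3.02 and 3.80 TPM in KO. PRBKO libraries held 2.46, 3.97 and 3.48 TPM in WT and 3.15, 4.05 and 4.21 TPM in KO. In both strains the groups overlapped and Kdr did not pass (limma adjusted p = 0.463 and 0.484). The effect on Kdr in PRKO was not shown to differ from that in PRAKO or PRBKO (limma adjusted p = 0.138 and 0.207).

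Pecam1, the platelet and endothelial adhesion molecule that defines endothelium, did not pass in any strain. In PRKO it held 8.17, 7.99 and 8.30 TPM in WT and 7.29, 6.23 and 7.41 TPM in KO, a change of −0.21 ± 0.09 (limma adjusted p = 0.185). In PRAKO it held 4.16, 3.71 and 4.01 TPM in WT and 3.73, 2.93 and 3.99 TPM in KO, and in PRBKO 2.77, 3.11 and 3.79 TPM in WT and 3.25, 5.00 and 4.54 TPM in KO. The groups did not overlap in PRKO, where KO was lower, and overlapped in PRAKO (−0.15 ± 0.13) and PRBKO (0.34 ± 0.18). Pecam1 was 1 of 6 members whose effect differed between PRKO and PRBKO at a limma adjusted p of at most 0.05, short of a call.

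The remaining blood endothelial members held low to middling levels. In PRKO the receptor kinases Tek (1.94 ± 0.0663 TPM in WT, 1.56 ± 0.150 in KO) and Tie1 (2.64 ± 0.111 and 2.10 ± 0.213), the sialomucin Emcn (7.08 ± 0.350 and 5.53 ± 0.425) and the guidance receptor Robo4 (2.26 ± 0.171 and 1.74 ± 0.268) had non-overlapping groups with KO lower. None of these 4 passed (limma adjusted p from 0.0594 for Emcn to 0.25 for Tek). Across all tested members 9 had all KO libraries below WT in PRKO and 1 had all above, against 25.6% and 6.37% of all genes, and after rescaling to protein-coding genes 4 were below and 1 above, against 14.4% and 13.5%. Beside these PRKO values, 6 erythroid genes summed to 55.2 to 135.0 TPM in WT and 184 to 319 TPM in KO, and 10 oocyte genes to 240 to 313 TPM in WT and 185 to 224 TPM in KO. Their part in the PRKO values was not tested.

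Ratios within a library do not depend on how the library was scaled. They were chosen after the values were seen and are given as a description. Cdh5 over Pecam1 was 3.37 ± 0.231 in PRKO WT and 2.25 ± 0.165 in PRKO KO, 7.08 ± 0.658 and 2.65 ± 0.285 in PRAKO, and 7.84 ± 0.541 and 7.70 ± 1.89 in PRBKO (mean ± SD, n = 3). KO was below WT in every library of PRKO and PRAKO, and in PRBKO the groups overlapped. Cdh5 over the sum of the other 9 blood endothelial members gave the same order, with 0.510 to 0.581 and 0.305 to 0.316 in PRKO, 1.31 to 1.54 and 0.475 to 0.547 in PRAKO, and 1.27 to 1.64 and 1.32 to 1.88 in PRBKO.

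Kdr over Pecam1 was 1.51 to 1.56 in PRKO WT and 2.43 to 2.91 in PRKO KO, with no overlap. In PRAKO it was 0.772 to 0.832 and 0.952 to 1.03, again higher in every KO library, and in PRBKO it was 0.889 to 1.27 and 0.809 to 0.970. Tie1 over Pecam1 was 0.316 to 0.335 in PRKO WT and 0.298 to 0.307 in PRKO KO, 0.282 to 0.303 and 0.308 to 0.368 in PRAKO, and 0.234 to 0.312 and 0.262 to 0.322 in PRBKO. Its groups were thus also apart in PRKO, with KO lower, and in PRAKO, with KO higher. Emcn over Pecam1 was 0.844 to 0.913 in PRKO WT and 0.758 to 0.821 in PRKO KO, again apart, and its groups overlapped in the other strains.

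**Figure D4:**
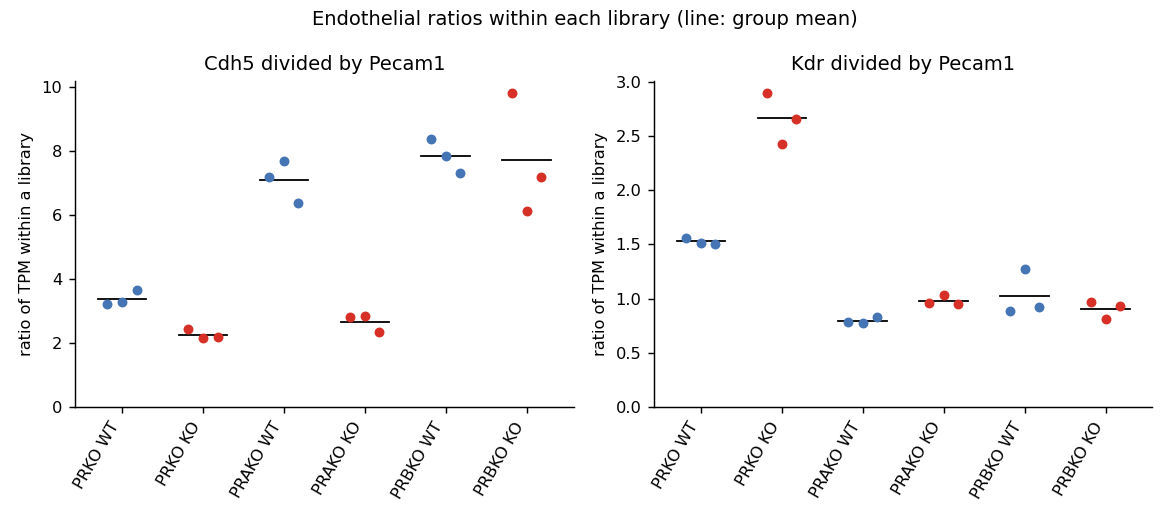
Cdh5 and Kdr TPM divided by Pecam1 TPM in the same library, 1 point per library with a line at the group mean of 3 libraries. In PRAKO mean Cdh5 over Pecam1 was 7.08 for WT and 2.65 for KO, and Kdr over Pecam1 was 2.43 to 2.91 in the PRKO KO libraries.

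Lymphatic endothelium was represented by 3 genes. Prox1 (gene 19130, chromosome 1, 190118035 to 190170827), the transcription factor that sets lymphatic identity, was near 1 TPM throughout. In PRAKO it held 0.628, 0.702 and 0.989 TPM in WT and 1.23, 1.30 and 1.42 TPM in KO. KO was above WT in every library, a rise of 0.52 ± 0.16 (0.30 relative, limma adjusted p = 0.0395), which no longer passed after scaling by size factors (limma adjusted p = 0.0938), to protein-coding genes (0.137) or by quantiles (0.0597), or with a pseudocount of 0.1 (0.0502). It was also lost without WT replicate 1 (0.131) or WT replicate 2 (0.105).

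Prox1 in PRKO held 0.740, 0.701 and 0.715 TPM in WT and 1.25, 0.977 and 1.02 TPM in KO. Every KO library was higher there too, although too few reached 1 TPM for a test. In PRBKO it held 0.903, 1.35 and 0.767 TPM in WT and 1.58, 1.32 and 1.33 TPM in KO, with overlapping groups (0.36 ± 0.19, limma adjusted p = 0.22).

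Pdpn, a mucin-like glycoprotein of lymphatics that is also made by other stromal cells, was the most abundant of the 3 at 19.9 TPM on average. It held 21.0, 21.0 and 12.9 TPM in PRKO WT and 15.0, 13.5 and 17.7 TPM in PRKO KO, 23.5, 24.7 and 25.3 and then 26.9, 20.1 and 26.1 TPM in PRAKO, and 19.7, 18.8 and 19.8 and then 17.6, 19.97 and 15.2 TPM in PRBKO. Flt4, the VEGF-C receptor, ranged from 0.920 to 2.65 TPM. The groups of both genes overlapped in each strain and neither passed. PRKO WT replicate 3 was the low library for Pdpn.

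Lyve1, a hyaluronan receptor used as a lymphatic and macrophage marker, is not among the 44 members, but a reading of the lymphatic markers turns on it. It was 49.8 to 76.0 TPM in PRKO WT and 1.17 to 1.71 TPM in PRKO KO, 111.7 to 135.0 and 1.27 to 2.39 TPM in PRAKO, and 78.6 to 108.6 and 134.0 to 177.8 TPM in PRBKO. Its fall in PRKO (−4.98 ± 0.19) and PRAKO (−5.68 ± 0.19) was not shared by Prox1, Pdpn or Flt4, whose log2 fold changes ran from −0.28 to 0.52 where tested.

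The promoter of Prox1 is shown with those of C1qb and Cd68, 2 macrophage genes described next, to let the lymphatic regulator be read against them. Each is the 250 bases before the listed start, from RefSeq on GRCm38.p6 and on the minus strand, at chr1:190170828-190171077, chr4:136886201-136886450 and chr11:69666171-69666420 in that order. Capitals mark GGAA, the core of sites for ETS factors, and AGAACA, one arm of a progesterone response element, on either strand (TTCC and TGTTCT when reversed).
Prox1: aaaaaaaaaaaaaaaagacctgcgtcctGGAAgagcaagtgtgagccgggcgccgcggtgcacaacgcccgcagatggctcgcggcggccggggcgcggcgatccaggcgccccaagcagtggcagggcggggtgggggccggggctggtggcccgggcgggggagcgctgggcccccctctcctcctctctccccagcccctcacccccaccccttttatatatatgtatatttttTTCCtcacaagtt
C1qb: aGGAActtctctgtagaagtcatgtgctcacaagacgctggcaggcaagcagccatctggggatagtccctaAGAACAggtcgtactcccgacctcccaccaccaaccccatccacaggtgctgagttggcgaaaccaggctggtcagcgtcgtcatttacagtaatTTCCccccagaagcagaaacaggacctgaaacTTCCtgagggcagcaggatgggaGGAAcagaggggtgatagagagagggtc
Cd68: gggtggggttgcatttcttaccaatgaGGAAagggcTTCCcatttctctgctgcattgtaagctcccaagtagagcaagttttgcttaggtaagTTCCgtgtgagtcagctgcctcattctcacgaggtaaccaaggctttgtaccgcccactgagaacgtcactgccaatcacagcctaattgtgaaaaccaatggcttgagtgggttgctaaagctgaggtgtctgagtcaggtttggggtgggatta
GGAA occurred 2 times in the Prox1 window, 4 times in that of C1qb and 3 times in that of Cd68, beside a median of 3 over 32817 promoter windows of this length. A second Prox1 start in RefSeq lies inside the gene, and its window, not shown, held GGAA 5 times. AGAACA occurred in the C1qb window alone of these, and in 16.1% of all windows. Sequences of 29 of the 44 members were matched, and a match is a description of letters only.

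Macrophage and leukocyte markers did not pass in any strain at either threshold on TPM as deposited. The 13 members had mean levels of 0.37 to 11.9 TPM and the 11 tested in each strain had a median log2 fold change of 0.08 in PRKO, −0.13 in PRAKO and 0.13 in PRBKO. In PRAKO all 11 were below the median of all genes, by 0.05 for Csf1r to 0.68 for Laptm5. Lyz2, the lysozyme of myeloid cells and the most abundant, held 12.6, 13.1 and 15.9 TPM in PRKO WT and 8.65, 18.5 and 22.6 TPM in PRKO KO. The KO libraries spread to both sides of WT.

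In PRAKO Lyz2 held 8.89, 10.2 and 11.1 TPM in WT and 6.21, 9.17 and 7.75 TPM in KO (−0.37 ± 0.15, limma adjusted p = 0.0768), and in PRBKO 12.99, 6.799 and 14.04 TPM in WT and 7.54, 12.4 and 15.2 TPM in KO. Groups overlapped in both. After scaling by size factors, to protein-coding genes or by quantiles Lyz2 and C1qb passed the weaker threshold in PRAKO.

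Ptprc, the common leukocyte antigen CD45, stayed under 1 TPM everywhere. It held 0.399, 0.576 and 0.446 TPM in PRKO WT, 0.323, 0.537 and 0.922 TPM in PRKO KO, 0.275, 0.352 and 0.423 TPM in PRAKO WT and 0.222, 0.284 and 0.288 TPM in PRAKO KO. In PRBKO it held 0.428, 0.195 and 0.435 TPM in WT and 0.284, 0.576 and 0.516 TPM in KO. The groups overlapped in each strain.

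Csf1r, the growth factor receptor that defines the macrophage lineage, held 0.970, 1.32 and 0.912 TPM in PRKO WT and 0.907, 1.21 and 1.42 TPM in PRKO KO. In PRAKO it held 0.856, 0.980 and 0.947 TPM in WT and 1.07, 1.14 and 1.09 TPM in KO, and in PRBKO 0.876, 0.817 and 1.38 TPM in WT and 0.894, 1.17 and 1.41 TPM in KO. In PRAKO all KO libraries were above WT and in the other strains the groups overlapped. The PRAKO change was 0.17 ± 0.13, less than the shift of all genes there (limma adjusted p = 0.337). Cd68, a lysosomal protein of macrophages, was 5.10 to 11.1 TPM and its groups overlapped in each strain.

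The macrophage members varied between libraries of a group, and in PRKO KO, PRAKO KO and both PRBKO groups most did so together. In PRKO KO 11 of the 13 were lowest in replicate 1 and 9 were highest in replicate 3, where their sum ran from 36.9 to 62.3 TPM. In PRBKO WT 12 of the 13 were lowest in replicate 2, with sums of 32.8 to 50.02 TPM, and in PRBKO KO 12 were lowest in replicate 1, with sums of 34.5 to 55.2 TPM. In PRAKO KO 10 were lowest in replicate 2 and 10 highest in replicate 3. The lowest values were spread over replicates 1 to 3 in PRKO WT (7, 4 and 2 members) and PRAKO WT (6, 4 and 3). PRBKO KO replicate 1 was also lowest for 7 of 10 blood endothelial, 1 of 3 lymphatic, 4 of 5 theca and stroma, 5 of 7 muscle and 6 of 6 keratin members. The share of all genes lowest in a given library was not worked out. Cd68 and Fcer1g, a signalling subunit of Fc receptors, were highest in PRKO KO replicate 1, where the other 11 were lowest, and Cd68 was highest in PRAKO KO replicate 2.

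The complement genes C1qa, C1qb and C1qc, which make up the C1q protein of tissue macrophages, followed this order in PRKO KO. C1qb held 4.26, 4.07 and 5.96 TPM in PRKO WT and 2.49, 4.72 and 5.28 TPM in PRKO KO, and C1qa 2.98, 2.94 and 4.27 and then 2.08, 4.17 and 5.11 TPM. The ratio of C1qb to C1qa was 1.39 to 1.43 in PRKO WT and 1.03 to 1.201 in PRKO KO, 1.74 to 2.03 and 1.41 to 1.63 in PRAKO, and 1.65 to 1.77 and 1.12 to 2.32 in PRBKO. The ratio was lower in every KO library than in every WT library in PRKO and PRAKO, a description chosen after the values were seen.

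**Figure D5:**
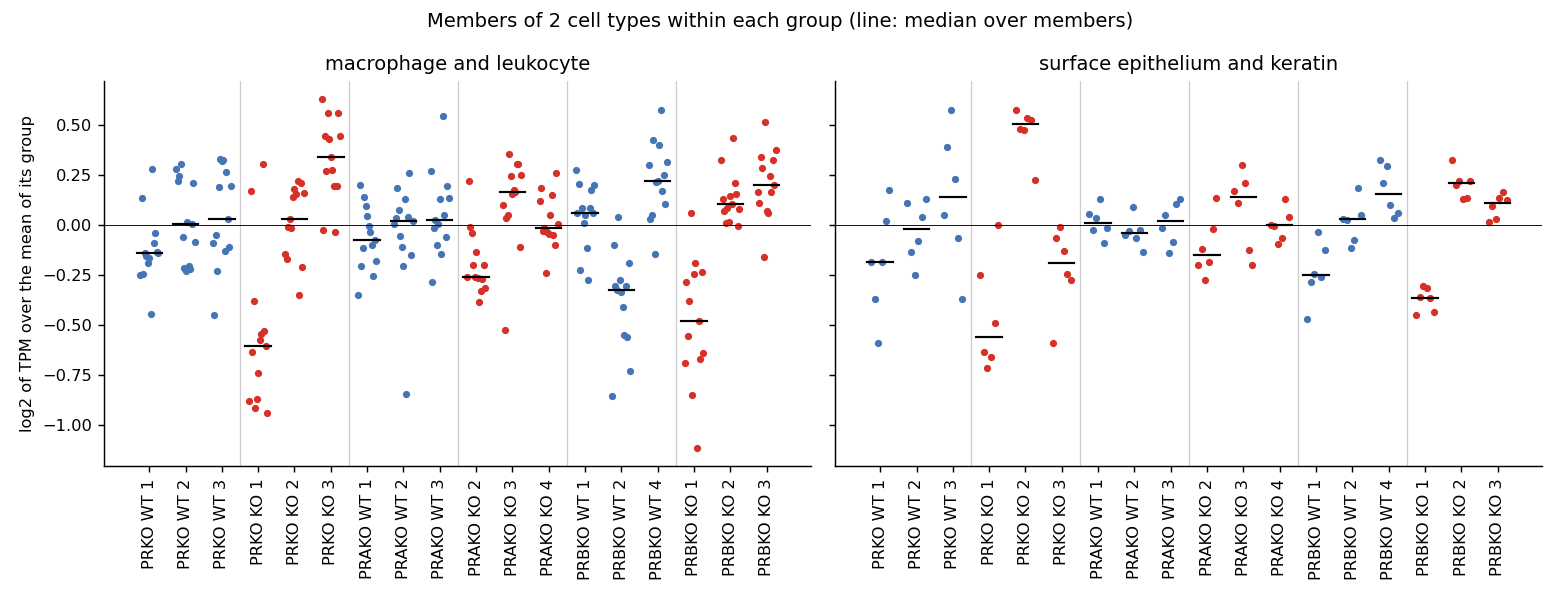
Log2 of TPM over the mean of the same group, 1 point per member and library, with a line at the median over members, for the 13 macrophage and leukocyte members and the 6 surface epithelium and keratin members. The macrophage points of PRKO KO replicate 1 lay low for 11 of 13 genes, and the keratin points of PRKO KO replicate 2 were the highest of their group for 6 of 6.

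Theca and stroma had 5 members. Insl3 (gene 16336, chromosome 8, 71689252 to 71690577), the peptide hormone made by theca cells, fell in PRAKO. It held 4.32, 3.70 and 4.71 TPM in WT and 3.07, 2.46 and 3.40 TPM in KO, with no overlap (−0.45 ± 0.14, −0.67 relative, limma adjusted p = 0.0410). In PRKO it held 20.5, 20.5 and 12.3 TPM in WT and 9.54, 15.6 and 18.5 TPM in KO, and in PRBKO 1.99, 4.74 and 2.79 TPM in WT and 2.46, 6.21 and 6.65 TPM in KO. Both of these overlapped and neither passed.

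Tcf21 (gene 21412, chromosome 10, 22817263 to 22820143), a transcription factor of stromal and perivascular precursors, fell in PRAKO from 3.58, 3.22 and 3.23 TPM in WT to 2.76, 1.40 and 2.10 TPM in KO (−0.61 ± 0.19, −0.83 relative, limma adjusted p = 0.0445). In PRKO it held 7.53, 6.11 and 5.72 TPM in WT and 2.67, 5.64 and 3.56 TPM in KO. The PRKO groups did not overlap either, with a change of −0.69 ± 0.24 that did not pass (limma adjusted p = 0.132) until KO replicate 2 was left out. In PRBKO the groups overlapped, at 1.83 to 3.20 TPM in WT and 1.97 to 3.56 TPM in KO. The PRAKO passes of Insl3 and Tcf21 were lost without filtering (limma adjusted p = 0.0831 and 0.0895) and with all 18 libraries in the fit (0.289 and 0.0751). That of Insl3 was lost on leaving out any 1 of the 6 (limma adjusted p of 0.0534 to 0.113) and that of Tcf21 on leaving out any but KO replicate 2 (0.0514 to 0.118).

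Pdgfra, a growth factor receptor of stromal fibroblasts, held 7.65, 7.75 and 5.82 TPM in PRKO WT and 5.69, 5.39 and 8.41 TPM in PRKO KO. In PRAKO it held 5.77, 6.55 and 5.99 TPM in WT and 7.03, 4.08 and 6.13 TPM in KO, and in PRBKO 4.97, 5.18 and 5.10 TPM in WT and 4.71, 7.88 and 6.98 TPM in KO. Its groups overlapped throughout.

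Dcn, the matrix proteoglycan decorin, was the most abundant of the theca and stroma members. It held 18.9, 15.8 and 17.2 TPM in PRKO WT and 10.7, 25.9 and 24.5 TPM in PRKO KO, and 7.01 to 13.003 TPM in the other 2 strains. The PRKO KO libraries lay on both sides of WT, with replicate 1 the low one as for macrophage genes. Without that library Dcn passed the weaker threshold in PRKO. Lum, a related proteoglycan, was 0.537 to 2.91 TPM and did not pass where tested.

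Smooth muscle and pericyte members were lower in KO than in WT by point estimate in PRKO and mostly higher in PRBKO, and none of the 7 passed in any strain on TPM as deposited. All genes shifted the same way, by −0.10 in PRKO and 0.22 in PRBKO. Relative to that shift the median change of the 7 was −0.11 in PRKO and 0.02 in PRBKO. Myh11, the smooth muscle myosin heavy chain, held 8.61, 8.24 and 7.73 TPM in PRKO WT and 5.84, 5.75 and 7.02 TPM in PRKO KO (−0.38 ± 0.10, limma adjusted p = 0.0579). In PRBKO it held 4.37, 4.74 and 4.28 TPM in WT and 6.37, 6.98 and 6.27 TPM in KO (0.50 ± 0.12, limma adjusted p = 0.0552). The groups did not overlap in either strain and stood in opposite order. All KO libraries were likewise below WT for 25.6% of all genes in PRKO and above WT for 33.5% in PRBKO. In PRAKO they overlapped, at 5.53, 5.29 and 6.44 TPM in WT and 6.83, 3.46 and 5.47 TPM in KO.

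Tagln, an actin-binding protein of contractile cells, overlapped between genotypes in PRKO and stood in opposite order in PRAKO and PRBKO. It held 13.1, 12.03 and 13.1 TPM in PRKO WT and 10.01, 12.2 and 12.002 TPM in PRKO KO, and 6.50, 7.97 and 7.40 TPM in PRBKO WT and 9.61, 13.7 and 11.5 TPM in PRBKO KO. In PRAKO it held 10.98, 9.78 and 10.2 TPM in WT and 8.84, 8.73 and 8.85 TPM in KO. KO was wholly below WT in PRAKO (−0.22 ± 0.08) and wholly above it in PRBKO (0.63 ± 0.15), and did not pass in either (limma adjusted p = 0.0657 and 0.0536). The same orders held for 6.31% of all genes in PRAKO and 33.5% in PRBKO.

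The difference of these effects was tested between strains. For Tagln it was −0.84 ± 0.16 between PRAKO and PRBKO (limma adjusted p = 0.00299) and −0.78 ± 0.16 between PRKO and PRBKO (limma adjusted p = 0.00238). For Myh11 it was −0.88 ± 0.23 between PRKO and PRBKO (limma adjusted p = 0.0110). None reached the fold limit of a call, and after subtracting the all-gene median the 2 differences between PRKO and PRBKO were −0.48 and −0.58. The PRBKO KO libraries behind them are those that stood apart in protein-coding share. At a limma adjusted p of at most 0.05 with any fold, 6 of 41 members differed between PRKO and PRBKO, all negative. They were Cdh5, Pecam1, Tie1, Robo4, Tagln and Myh11, and the all-gene median of this difference was −0.31. Between PRAKO and PRBKO 2 members, Cdh5 and Tagln, passed so. The share of all genes passing at this threshold was not worked out for differences between strains.

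Acta2, smooth muscle actin, was the most abundant of the 7. It held 29.4, 28.5 and 24.4 TPM in PRKO WT and 25.5, 22.7 and 22.1 TPM in PRKO KO, 18.03, 17.6 and 17.02 and then 16.1, 13.01 and 16.0 TPM in PRAKO, and 12.4, 17.8 and 14.4 and then 15.5, 18.7 and 18.2 TPM in PRBKO. The groups overlapped in PRKO and PRBKO. In PRAKO they were apart, with KO lower (−0.22 ± 0.10, limma adjusted p = 0.106), and with size factors, protein-coding scaling or quantiles Acta2 and Tagln passed the weaker threshold in PRAKO. Pericyte markers Pdgfrb, Des, Rgs5 and Cspg4 were 0.611 to 8.22 TPM. All 7 members were lowest in replicate 3 of PRAKO KO, as were all 10 blood endothelial members, while 10 macrophage members were highest in it. That library had 44.7% of TPM in protein-coding genes, against 45.4% and 47.8% in PRAKO KO replicates 2 and 4. The share of all genes lowest in that library was not worked out.

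Surface epithelium and keratin members did not pass in any strain on TPM as deposited. Krt19 and Krt8, intermediate filament proteins of simple epithelia, were the most abundant. Krt19 held 13.1, 12.8 and 14.4 TPM in PRBKO WT and 16.4, 22.4 and 22.4 TPM in PRBKO KO, and Krt8 10.5, 13.1 and 14.8 and then 15.4, 22.7 and 21.1 TPM. KO was above WT in every library for both (0.57 ± 0.14 and 0.60 ± 0.17, limma adjusted p = 0.0564 and 0.0763), or 0.36 and 0.38 above that median shift. Krt18, the partner of Krt8 in filaments, stood at 0.71 ± 0.17 (limma adjusted p = 0.0564).

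These PRBKO values were close to the threshold and depended on single choices. Krt8, Krt18 and Krt19 passed the weaker threshold there with a filter on a mean of at least 5 TPM and without PRBKO KO replicate 1, the library in which all 6 members were lowest of their group. In total 9 tested members had every PRBKO KO library above WT and 0 had every one below, against 33.5% and 1.21% of all genes, and after rescaling to protein-coding genes these counts were 5 above and 5 below, against 7.36% and 25.9%.

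Erythroid genes summed to 75.4 to 206.5 TPM in PRBKO WT and 222.6 to 358.9 TPM in PRBKO KO, and their part in these values was not tested.

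In PRKO and PRAKO the keratins overlapped between genotypes. Krt19 held 10.2, 10.99 and 13.6 TPM in PRKO WT and 7.51, 17.2 and 10.8 TPM in PRKO KO, and 15.8, 13.8 and 13.6 and then 11.9, 15.6 and 12.9 TPM in PRAKO. Krt8 held 6.002, 7.04 and 10.2 TPM in PRKO WT and 5.95, 12.9 and 8.81 TPM in PRKO KO, and 12.98 to 15.2 TPM in PRAKO. Replicate 2 of PRKO KO was the highest of its group for all 6 members of the list.

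Upk3b, a uroplakin of mesothelium and ovarian surface, held 15.0, 15.2 and 14.2 TPM in PRKO WT and 10.1, 20.4 and 11.96 TPM in PRKO KO. In PRAKO it held 9.11, 9.54 and 10.4 TPM in WT and 8.94, 8.31 and 9.93 TPM in KO, and in PRBKO 10.3, 14.0 and 12.6 TPM in WT and 10.2, 14.4 and 14.7 TPM in KO. The groups overlapped in each strain, and with size factors, protein-coding scaling or quantiles Upk3b fell in PRAKO. Over Krt19 it was 1.04 to 1.47 in PRKO WT and 1.10 to 1.35 in PRKO KO, 0.532 to 0.770 over both PRAKO groups, and 0.783 to 1.09 and 0.618 to 0.655 in PRBKO WT and KO.

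The strains differed in the level of several members irrespective of genotype. For 12 of the 44 members all 6 PRKO libraries were above the other 12 libraries, against 2.3% of 14889 genes, and for 0 members were all 6 PRAKO or all 6 PRBKO libraries so, against 0.0537% and 5.4% of genes. They were 8 of the 10 blood endothelial genes (Pecam1, Tek, Tie1, Kdr, Emcn, Egfl7, Esam and Robo4), the theca and stroma genes Insl3 and Lum, and Pdgfrb and Acta2. Cdh5 and Vwf were not among them. Mean WT levels in PRKO, PRAKO and PRBKO were 27.5, 27.97 and 25.1 TPM for Cdh5, beside 8.15, 3.96 and 3.23 TPM for Pecam1. Insl3 ranged from 9.54 to 20.5 TPM in PRKO libraries and from 1.99 to 6.65 TPM in the others. After rescaling to protein-coding genes the count was 15, against 5.75% of genes. Each strain was deposited as a table of its own, so strain and any handling particular to a table cannot be told apart.

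Other markers of the same cell types were read in the same way, and some of them changed more than any member did. Of 66 such genes 55, 48 and 53 were tested in PRKO, PRAKO and PRBKO, and 2, 4 and 0 of them were called, against 2.14%, 2.05% and 0.133% of all genes. Those called were Cd34, a sialomucin of endothelium and stromal precursors, which fell in PRKO (−2.22 ± 0.12) and PRAKO (−1.69 ± 0.08), Lyve1 in the same strains, and in PRAKO Hhip, a hedgehog-binding protein (−1.203 ± 0.09), and Sema3d, a secreted guidance molecule that rose (1.21 ± 0.10). Among the blood endothelial genes outside the members all 15 tested in PRKO and all 11 tested in PRAKO lay below the median of all genes, beside 8 of 9 and 8 of 8 of the members. This was not particular to endothelium. All 10 oocyte genes lay below it in both strains, as did all 11 macrophage and all 6 keratin members in PRAKO. By contrast 9 of 11 macrophage members in PRKO and 8 of 12 granulosa markers in PRAKO lay above it. The weaker threshold was passed by 6 falls and 0 rises in PRKO, 8 falls and 5 rises in PRAKO and 0 falls and 1 rise in PRBKO, against 7.85% and 2.11%, 4.51% and 30%, and 0.209% and 3.19% of all genes. Of the 15 blood endothelial genes tested in PRKO 4 fell, Cldn5, Fli1, Icam2 and Cd34, and of the 11 in PRAKO 3 fell, Fli1, Icam2 and Cd34.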

How the data were processed

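The 18 libraries were made from total RNA with ribosomal RNA depletion and sequenced on a NovaSeq, and each pooled RNA of 3 mice. The authors estimated abundance with Salmon, and the deposited values are TPM per RefSeq transcript (42251), although the study's methods name a GENCODE annotation. The versions of these tools are not given in the sources used here. Each strain had its own table. Transcripts were summed to genes with RefSeq on GRCm38.p6, which matched 42067, and the other 184 were left out. Since TPM keeps no depth, no count test was run. Genes at 1 TPM or more in at least 3 of the 6 libraries of a strain were fitted as log2(TPM + 0.5) in limma 3.58.1 (R 4.3.3) with a mean-variance trend, and differences between strains as contrasts over 18 libraries. Python 3.11.15, pandas 2.3.3 and matplotlib 3.10.9 were also used. The fit was tested on simulated data.

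Samples were grouped by their labels, and p-values cover the spread between pools. The members, lists and thresholds were chosen with earlier results of these data known. Named genes were members passing either threshold or a difference between strains, 10 defining markers and the 2 most abundant members of each cell type. Others named were chosen after their values were seen. Alternatives were pseudocounts of 1 and 0.1, a mean of at least 5 TPM or no minimum, scaling by size factors, protein-coding genes or quantiles, fitting the 18 libraries together, the replicate number as a block and leaving out each library.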

Additional observations from a re-analysis of the deposited data

Results flagged for a closer look

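The change of Cdh5 with genotype differed between strains by a test of the difference itself. The difference between PRAKO and PRBKO was −1.87 on the log2(TPM + 0.5) scale (limma adjusted p = 1.65e-06), and that between PRKO and PRBKO was −1.12 (limma adjusted p = 9.35e-05). Relative to the median of all genes the PRKO to PRBKO difference was −0.82, and it was not called under any of the 3 scalings. In all 3 KO libraries of PRKO and of PRAKO Cdh5 was below WT, as for 25.6% and 6.31% of all genes. In all 3 of PRBKO it was above, as for 33.5% of all genes, and the PRBKO change did not pass.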

How the results depend on the processing

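Counts of members at an adjusted p of at most 0.05 in limma depended on the processing. In PRKO the count of 2 became 1 without filtering, and 1 to 3 on leaving out a library. In PRAKO the count of 4 became 2 without filtering, 1 with a mean of at least 5 TPM, 9 with size factors, 10 with protein-coding scaling, 9 with quantile normalization and 2 with all 18 libraries, and 1 to 4 on leaving out a library. In PRBKO the count of 0 became 4 with a mean of at least 5 TPM and 4 with all 18 libraries, and 0 to 13 on leaving out a library (13 without KO replicate 1 and 1 without WT replicate 4). Shares of all genes were worked out only for the main run and the 3 scalings, so the other counts have no background. Under size factors, protein-coding scaling and quantile normalization the members called for PRAKO against PRKO went from 0 to 1 in each, and those for PRKO against PRBKO from 1 to 0 in each. With the replicate block the counts were 2 in PRKO, 1 in PRAKO and 5 in PRBKO. Same-numbered libraries correlated at 0.15, −0.15 and 0.08 in PRKO, −0.04 and −0.01 in PRAKO and 0.03 and 0.04 in PRBKO, so the numbers were not taken as pairs. Apart from what the scalings change by construction, the cause was not tested. Of single genes, the log2 fold changes of Cdh5 in the 3 strains, Kdr in PRKO and Prox1, Insl3 and Tcf21 in PRAKO kept their sign under the alternatives that gave a value, and other genes were not followed. The all-gene median, −0.10 in PRKO and 0.22 in PRAKO and PRBKO, lay between −0.08 and 0.03 under the 3 scalings. Members near 1 TPM sit at the filter, and their read depth is unknown.

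With protein-coding scaling, added after seeing the data, members with all KO below WT went from 9 to 4 in PRKO (25.6% and 14.4% of all genes), 7 to 17 in PRAKO (6.31% and 15.3%) and 0 to 5 in PRBKO (1.21% and 25.9%), those with all KO above from 3 to 1 in PRAKO (45% and 18.6%) and 9 to 5 in PRBKO (33.5% and 7.36%), and those with all PRKO libraries highest from 12 to 15.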
